A study of Mus musculus with 20 samples.

Results

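The mitochondrial ribosomal protein genes were taken as the genes with a probe set of 1 symbol that begins with Mrpl or Mrps followed by a digit, and 77 genes met that rule among the 19938 genes with such a probe set. Of the 77 genes, 50 encode proteins of the large subunit, among them Mrps30 and Mrps18a in spite of their names, 26 encode proteins of the small subunit, and Mrps36 encodes a protein now placed in the ketoglutarate dehydrogenase complex. All 77 genes passed the filter on dim probe sets and stand among the 11968 genes tested. Mrpl53 was left out because its probe set is shared with another gene. Values are log2 intensities from the RMA method on Affymetrix Mouse Gene 1.0 ST arrays, and a difference of 1 on this scale is a doubling.

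The arrays measured total RNA of splenic B cells from C57BL/6 mice aged 8-12 weeks, males and females mixed. TAK1-deleted mice carried floxed alleles of Map3k7, which encodes the kinase TAK1, with the B lineage deleter mb-1 (mb-1/TAK1f/f), and wild type mice carried mb-1 with intact alleles (mb-1/TAK1+/+), so that both genotypes share the deleter. Cells were obtained by removing CD43-bearing cells and were taken at 0 h or after 1, 3, 6 or 24 h of anti-IgM (10 µg/ml), which binds the B cell receptor and triggers its signals. There were 10 groups of 2 arrays, and since the labels do not say that the arrays of a group came from separate mice, a p-value here reflects how far these samples spread, possibly for technical reasons only. Whether cells of the 0 h groups saw any culture is not in the labels.

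Mitochondria make the few membrane proteins encoded by their own genome on ribosomes of their own. These ribosomes descend from bacterial ones, take their RNA from the mitochondrial genome and take every protein from nuclear genes, some with bacterial counterparts and some found in mitochondria alone. The proteins made there are core subunits of the respiratory chain and the ATP synthase, so the supply of mitochondrial ribosomes bears on the respiration of a lymphocyte that leaves rest and prepares to divide.

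The whole-gene probe set of Map3k7 gave 10.60 and 10.40 in TAK1-deleted cells and 10.32 and 10.16 in wild type cells at 0 h. It summarises the transcript as a whole and the labels do not name the floxed exon, so it is no check of the deletion, and the groups are called by their labels. B cell markers were bright at 0 h, and 0 of the 9 tested differed between the genotypes there. Markers of other cells did differ: at 0 h, 10 of 10 erythroid markers tested and 7 of 13 mitosis genes were higher in TAK1-deleted cells. The summed linear signal of the erythroid markers was 17801 to 21333 in TAK1-deleted cells and 6211 to 6399 in wild type cells, and that of the mitosis genes 11346 to 14179 and 7022 to 7349. Lower there were 4 of 7 NK cell (2907 to 3430 against 5767 to 6709), 3 of 9 T cell (5389 to 7257 against 9273 to 12140) and 3 of 6 plasma cell markers (5271 to 5704 against 10690 to 11891). At 24 h, 12 of 13 mitosis genes were lower in TAK1-deleted cells (sums of 8355 to 9569 against 15822 to 18909 in wild type cells). There 10 of 12 monocyte or macrophage markers (15903 to 17881 against 5655 to 6107) and 9 of 9 neutrophil markers (8507 to 8794 against 1796 to 1906) were higher. Markers also moved over time in both genotypes. From 0 h to 6 h, 12 of 12 monocyte or macrophage markers fell in TAK1-deleted cells and 11 of 12 in wild type cells, as did 5 of 5 dendritic cell, 7 of 7 NK cell and 7 of 9 B cell markers in each. The monocyte or macrophage sum was 29597 to 31520 at 0 h and 3210 to 3653 at 6 h in TAK1-deleted cells, and 31223 to 33550 and 3384 to 3857 in wild type cells. The B cell sum was 73285 to 76791 and 32478 to 37692 at those times in TAK1-deleted cells, and 73966 to 80997 and 39664 to 40997 in wild type cells. The part of these cells in the results below was not tested, and in bulk RNA fewer cells of a type and less RNA per cell cannot be told apart.

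Over all arrays the mean of a gene had a median of 9.58 across the family and of 9.19 across all genes tested, and 45 of the 77 genes lay above the median of all genes. Mrps21, Mrpl10 and Mrps18b were the brightest, with means of 11.40, 11.18 and 11.11, and Mrps36, Mrpl44 and Mrps12 the dimmest, with 7.47, 7.65 and 7.83. Levels of different genes were read by different probes, so their order says little about amounts of RNA.

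Genes of one family with a common course can be viewed through their promoters, and 68 of the 77 genes had an entry in the RefSeq promoter table (build GRCm38.p6), which covers 250 bases before to 50 after a start of transcription. Mrpl54, which rose within 1 h, and Mrps28, with the largest rise in wild type cells, had no entry there. The 8 sequences below were chosen because their genes carry the results that follow: the other genes that rose within 1 h (Mrps6, Mrps7, Mrps18b), large later rises (Mrpl2, Mrps22, Mrpl12), 1 of a pair of members that start back to back (Mrps11, beside Mrpl46) and the largest early fall (Mrpl49). Each reads 5′ to 3′ on the strand of its gene. The windows are chr16:92058086-92058385 (plus strand) for Mrps6, chr11:115603890-115604189 (plus) for Mrps7, chr17:35916391-35916690 (minus) for Mrps18b, chr17:46645971-46646270 (plus, the first of 3 listed starts) for Mrpl2, chr9:98601630-98601929 (minus) for Mrps22, chr11:120484387-120484686 (plus) for Mrpl12, chr7:78782881-78783180 (plus) for Mrps11 and chr19:6057706-6058005 (minus) for Mrpl49. Capitals mark matches, on either strand, to CACGTG (the E-box bound by Myc and its relatives), CGGAAG (the core bound by Ets factors and GABP), GCATGCG (part of the NRF1 site; 2 overlapping matches on opposite strands read CGCATGCG), ATGGCG (the core of the YY1 site), CCAAT (bound by NF-Y) and TATAAA (the TATA box).
Mrps6: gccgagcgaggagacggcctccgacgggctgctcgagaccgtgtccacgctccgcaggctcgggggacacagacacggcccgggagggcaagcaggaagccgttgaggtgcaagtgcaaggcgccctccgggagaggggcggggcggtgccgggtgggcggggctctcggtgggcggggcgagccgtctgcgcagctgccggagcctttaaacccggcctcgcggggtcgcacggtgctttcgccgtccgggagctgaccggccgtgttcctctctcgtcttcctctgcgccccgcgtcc
Mrps7: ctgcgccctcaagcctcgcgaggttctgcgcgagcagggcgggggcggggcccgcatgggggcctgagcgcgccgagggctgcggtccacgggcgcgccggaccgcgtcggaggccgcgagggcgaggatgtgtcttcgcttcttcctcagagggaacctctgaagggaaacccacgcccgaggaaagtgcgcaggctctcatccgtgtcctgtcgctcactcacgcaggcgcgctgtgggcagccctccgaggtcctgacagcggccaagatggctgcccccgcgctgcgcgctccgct
Mrps18b: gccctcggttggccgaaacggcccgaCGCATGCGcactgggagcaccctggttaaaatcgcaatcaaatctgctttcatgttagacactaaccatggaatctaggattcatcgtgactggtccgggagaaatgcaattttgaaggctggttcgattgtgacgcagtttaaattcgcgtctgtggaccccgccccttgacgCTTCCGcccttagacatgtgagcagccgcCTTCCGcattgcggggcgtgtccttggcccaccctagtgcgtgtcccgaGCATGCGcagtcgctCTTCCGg
Mrpl2: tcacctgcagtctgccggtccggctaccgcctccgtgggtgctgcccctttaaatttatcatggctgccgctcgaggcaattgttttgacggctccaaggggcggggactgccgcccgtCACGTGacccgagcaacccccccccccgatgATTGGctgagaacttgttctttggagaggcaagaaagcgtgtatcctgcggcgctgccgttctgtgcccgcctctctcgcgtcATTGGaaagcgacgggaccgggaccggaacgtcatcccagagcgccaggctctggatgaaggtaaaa
Mrps22: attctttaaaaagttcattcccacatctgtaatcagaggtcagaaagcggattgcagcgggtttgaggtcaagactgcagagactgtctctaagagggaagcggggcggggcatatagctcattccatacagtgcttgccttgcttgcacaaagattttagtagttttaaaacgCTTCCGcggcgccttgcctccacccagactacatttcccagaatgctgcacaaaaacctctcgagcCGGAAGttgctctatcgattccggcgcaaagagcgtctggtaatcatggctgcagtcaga
Mrpl12: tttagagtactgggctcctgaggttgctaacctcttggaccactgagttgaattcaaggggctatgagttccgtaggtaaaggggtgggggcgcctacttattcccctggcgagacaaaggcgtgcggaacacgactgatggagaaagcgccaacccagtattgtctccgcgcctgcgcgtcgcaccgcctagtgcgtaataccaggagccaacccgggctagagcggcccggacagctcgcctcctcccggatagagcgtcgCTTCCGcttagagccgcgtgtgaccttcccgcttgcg
Mrps11: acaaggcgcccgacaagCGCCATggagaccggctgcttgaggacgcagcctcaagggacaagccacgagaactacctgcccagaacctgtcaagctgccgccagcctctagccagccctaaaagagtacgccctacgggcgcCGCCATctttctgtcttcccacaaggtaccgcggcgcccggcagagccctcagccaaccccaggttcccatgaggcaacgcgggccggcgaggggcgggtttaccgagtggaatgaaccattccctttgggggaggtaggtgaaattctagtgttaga
Mrpl49: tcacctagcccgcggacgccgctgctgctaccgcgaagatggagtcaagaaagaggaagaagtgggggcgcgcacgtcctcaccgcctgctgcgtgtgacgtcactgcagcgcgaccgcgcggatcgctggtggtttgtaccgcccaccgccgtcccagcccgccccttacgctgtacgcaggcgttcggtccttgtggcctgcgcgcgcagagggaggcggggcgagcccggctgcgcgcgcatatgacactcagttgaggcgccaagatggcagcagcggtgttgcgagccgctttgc

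Among the 74 promoters of family members, 52.7% held the Ets core, against 29.8% of the promoters of tested genes and 16.9% of all promoters in the table. The YY1 core was in 24.3% of the members' promoters, against 14.6% and 8.93%, and the NRF1 core in 10.8%, against 6.17% and 3.58%. The E-box, in 9.46% of members' promoters, was no more frequent than among tested genes (9.91%), as with CCAAT (39.2% against 37.1%) and the TATA box (6.76% against 7.42%). These matches are a description of letters and not of bound sites. Of the 8 promoters printed, Mrps6, Mrps7 and Mrpl49 held none of the 6 motifs in this window, and Mrps18b held the Ets and NRF1 cores. At 24 h in wild type cells 27 of the 38 genes with an Ets core and 23 of the 30 without one were higher than at 0 h, with median changes of 0.79 and 0.67, and in TAK1-deleted cells 16 and 11 were.

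In TAK1-deleted cells few genes of the family passed the test at 1 h and more were higher from 3 h on. In the same arrays the summed signals of monocyte, dendritic, NK and B cell markers lay below those at 0 h. The monocyte or macrophage sum was 3210 to 3653 at 6 h but 15903 to 17881 at 24 h. That of dendritic cell markers was 1528 to 1841 and then 2354 to 2469. At 1, 3, 6 and 24 h, 4, 26, 36 and 31 of the 77 genes were higher than at 0 h (Benjamini-Hochberg adjusted p below 0.05 in limma), and 3, 2, 0 and 0 were lower. Across all genes tested, 9.1%, 19.6%, 18.5% and 14.9% were higher at those times, and 10.2%, 22.1%, 17.3% and 12.7% lower. The median change of the family was 0.03, 0.31, 0.45 and 0.39. The largest rises at 24 h were those of Mrpl54 (1.17 ± 0.16, SE, n = 2 each), Mrpl45 (1.12 ± 0.34), Mrps7 (1.04 ± 0.13) and Mrps6 (1.00 ± 0.14). The call for Mrpl45 did not hold without replicate 1 or 2 at 24 h or replicate 2 at 0 h, and the value without the last was 0.78.

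The counts in TAK1-deleted cells moved with single arrays and with the replicate number. Without replicate 1 at 3 h or replicate 2 at 0 h the count of genes higher at 3 h was 15. Without replicate 2 at 0 h the count at 6 h was 23. The count at 24 h was 14 without replicate 1 at 24 h and 19 without replicate 2 at 0 h. The count lower at 1 h was 1 without replicate 2 at 1 h or replicate 1 at 0 h. The count lower at 3 h was 0 without replicate 2 at 3 h or replicate 1 at 0 h and 1 without replicate 2 at 0 h. With the replicate number as a block the counts of higher genes were 11, 40, 55 and 54 at 1, 3, 6 and 24 h, against 15.1%, 27.4%, 28.2% and 24.1% of all genes tested with the same block. Those of lower genes at 1 and 3 h were 8 and 5, against 21.2% and 28.9%.

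More genes of the family passed the test in wild type cells. At 1, 3, 6 and 24 h, 4, 36, 56 and 57 genes were higher than at 0 h, against 10.6%, 20.9%, 24.1% and 23.6% of all genes tested. Genes that were lower numbered 9, 0, 0 and 0, against 13.9%, 23.2%, 19.1% and 20.2% of all genes. The median change was -0.15, 0.44, 0.66 and 0.74, and at 24 h the change was above 0 in all 77 genes, from 0.03 (Mrpl24) to 1.48 (Mrps28). With the replicate block, 12 genes were higher and 18 lower at 1 h, against 17.2% and 26.1% of all genes with the block, and 3 were lower at 3 h, against 30.1% (Mrpl4 at -0.42, Mrpl49 at -0.37 and Mrps36 at -0.37). Without replicate 1 at 0 h the count lower at 1 h was 4.

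**Figure D1:**
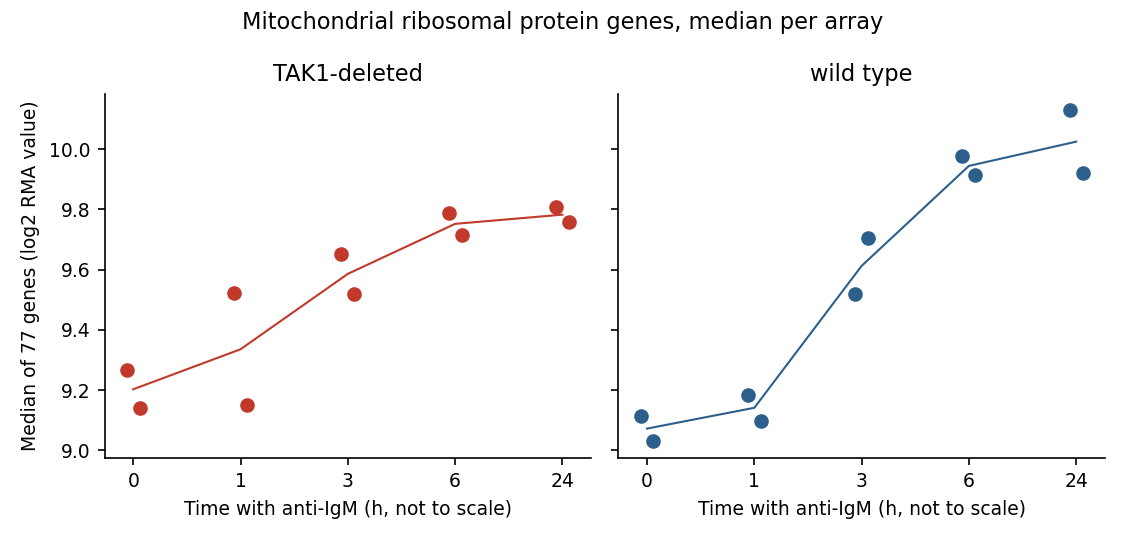
Median log2 value of the 77 mitochondrial ribosomal protein genes in each array (points, 2 per group; lines join the means of the pairs) at 0, 1, 3, 6 and 24 h, with TAK1-deleted cells on the left and wild type cells on the right. The medians in TAK1-deleted cells reached 9.81 and 9.76 at 24 h, and those in wild type cells 10.13 and 9.92.

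Per array, the median of the family in TAK1-deleted cells was 9.27 and 9.14 at 0 h, 9.52 and 9.15 at 1 h, 9.65 and 9.52 at 3 h, 9.79 and 9.72 at 6 h, then 9.81 and 9.76 at 24 h. In wild type cells it was 9.11 and 9.03 at 0 h, 9.18 and 9.10 at 1 h, 9.52 and 9.71 at 3 h, 9.98 and 9.91 at 6 h, then 10.13 and 9.92 at 24 h. The arrays at 3, 6 and 24 h all lay above those at 0 h in both genotypes, and the arrays at 6 and 24 h were the highest. The mean of a gene was highest at 6 h for 36 genes and at 24 h for 29 in TAK1-deleted cells, and at 6 h for 33 and at 24 h for 40 in wild type cells.

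**Figure D2:**
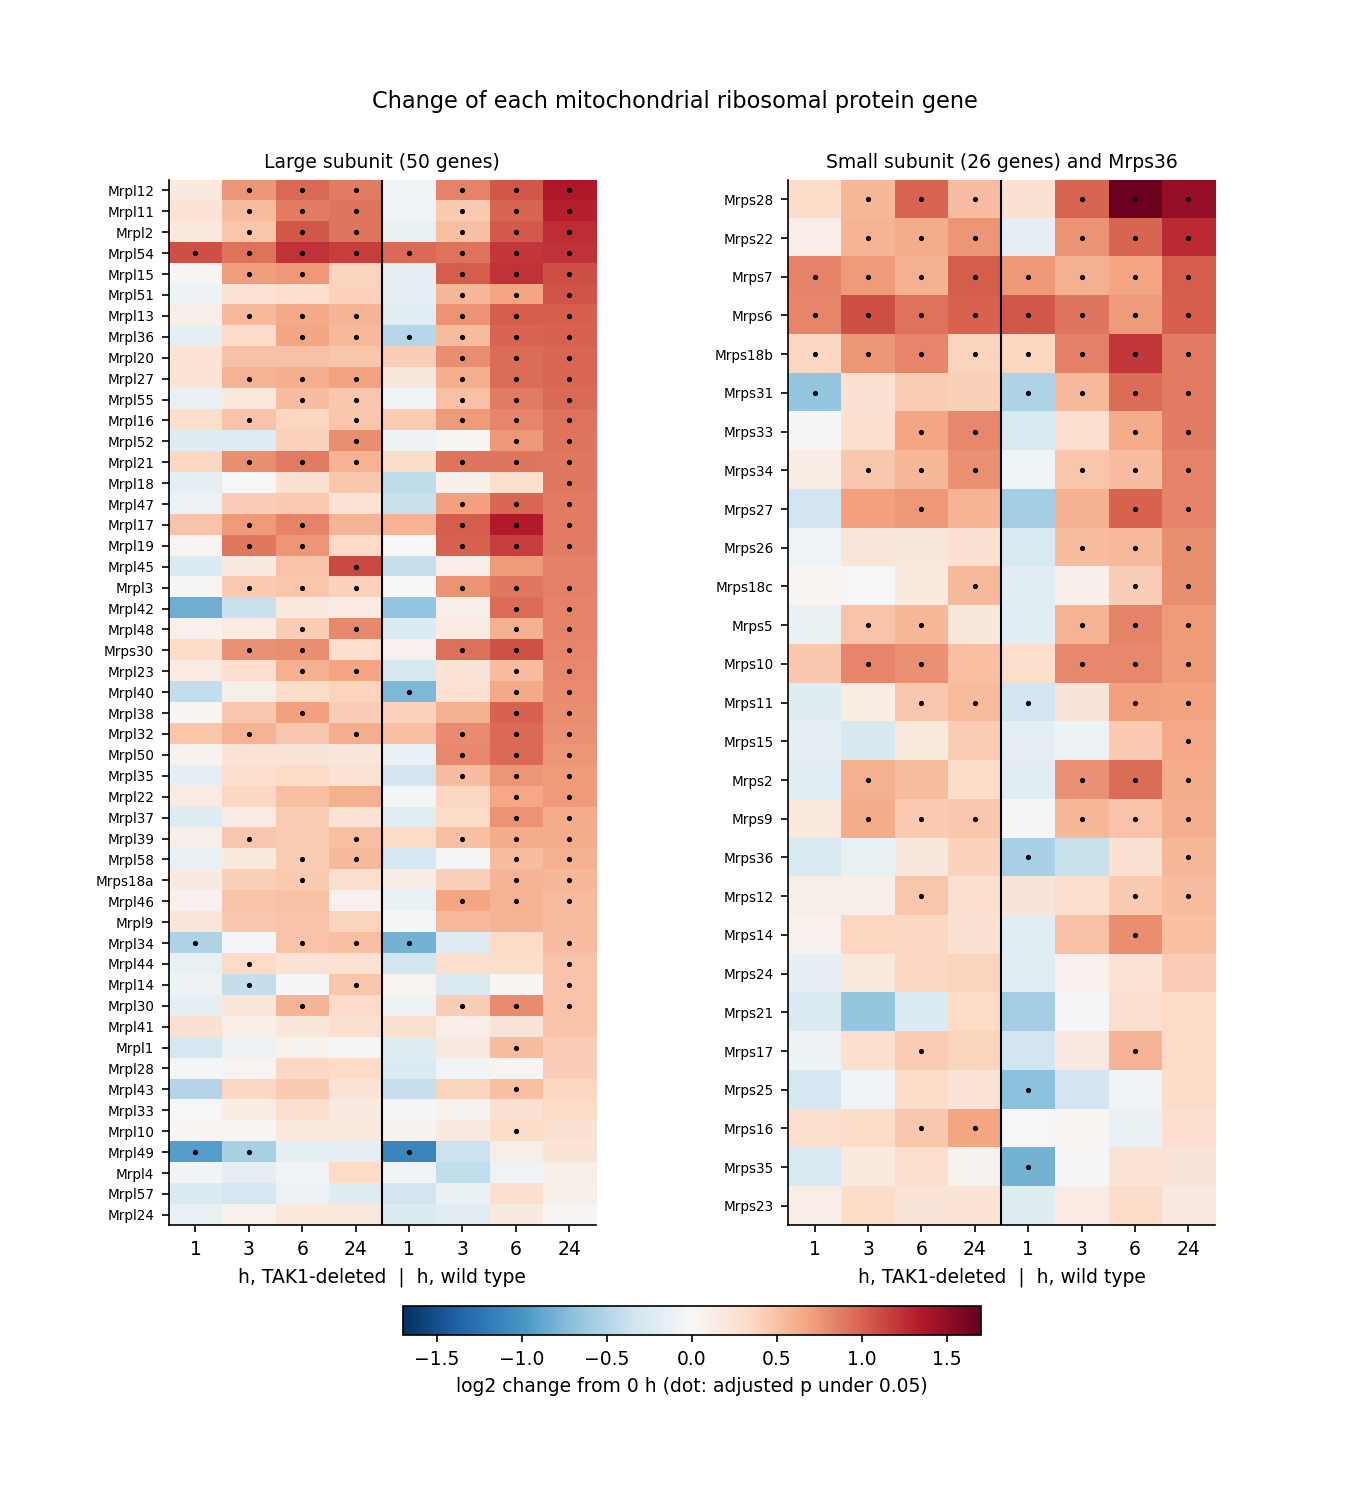
Log2 change from 0 h of each of the 77 genes (rows, ordered by the change at 24 h in wild type cells) at 1, 3, 6 and 24 h in TAK1-deleted cells (left 4 columns of each panel) and wild type cells (right 4), with a dot where the adjusted p was below 0.05. Most columns at 3, 6 and 24 h are red, up to 1.67 for Mrps28 at 6 h in wild type cells, and the blue cells lie mainly at 1 h, down to -1.10 for Mrpl49.

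Both subunits took part. Of the 50 large subunit genes, 21 were higher at 6 h and 20 at 24 h in TAK1-deleted cells, and 37 and 38 in wild type cells. Of the 26 small subunit genes, 15 and 11 were higher in TAK1-deleted cells, and 19 and 18 in wild type cells. The 46 proteins classed as having bacterial counterparts and the 30 classed as found in mitochondria alone had median changes at 24 h of 0.46 and 0.33 in TAK1-deleted cells and of 0.73 and 0.79 in wild type cells. Mrps18a and Mrps18b were classed with the 30, although they are versions of a protein that bacteria have. The higher genes of the 2 genotypes overlapped at 24 h in 29 genes, which are 29 of the 31 in TAK1-deleted cells and 29 of the 57 in wild type cells.

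Mrps6, Mrps7, Mrpl54 and Mrps18b, the 4 genes higher at 1 h in both genotypes, were also higher at each later time in both. Mrps6 encodes a small subunit protein with a bacterial counterpart. It had 8.71 and 8.50 at 0 h, 9.54 and 9.33 at 1 h, 9.78 and 9.63 at 3 h, 9.55 and 9.50 at 6 h, then 9.63 and 9.59 at 24 h in TAK1-deleted cells. In wild type cells it had 8.79 and 8.94, 9.94 and 9.90, 9.75 and 9.80, 9.39 and 9.78, and 9.85 and 9.91 at the same times. Every later array lay above both arrays at 0 h. In wild type cells the mean was highest at 1 h, and in TAK1-deleted cells it rose further to 3 h. The changes at 1 h were 0.83 ± 0.14 in TAK1-deleted cells (limma adjusted p = 0.0004) and 1.05 ± 0.14 in wild type cells (3.25e-05).

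Mrps7, a protein of the head of the small subunit, went with Mrps6 in the first hour: the 0 h pair was 9.39 and 9.36 and the 1 h pair 10.31 and 10.13 in TAK1-deleted cells, and the pairs were 9.56 and 9.36, then 10.23 and 10.18, in wild type cells. Its levels in both genotypes then dipped slightly and were highest at 24 h, with 10.51 and 10.31 in TAK1-deleted cells and 10.61 and 10.37 in wild type cells. Its step at 24 h over 6 h was 0.43 ± 0.13 in TAK1-deleted cells (limma adjusted p = 0.0258) and 0.36 ± 0.13 in wild type cells (0.0585, and 0.00942 with the replicate block). The call in TAK1-deleted cells did not hold without replicate 1 at 24 h or either replicate at 6 h. Its change at 24 h over 0 h differed between the genotypes by 0.01 ± 0.18.

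Mrpl54, a protein of the large subunit with no bacterial counterpart, had 9.06 and 9.06 at 0 h and 10.08 and 10.24 at 1 h in TAK1-deleted cells, and 9.17 and 9.01 and then 9.99 and 10.11 in wild type cells. The groups did not overlap, and the changes at 1 h, 1.10 ± 0.16 and 0.96 ± 0.16, kept their calls whichever array was left out. At 24 h the values were 10.31 and 10.16 in TAK1-deleted cells and 10.37 and 10.25 in wild type cells.

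Mrps18b is 1 of 3 mammalian versions of a small subunit protein that bacteria have in a single copy. It climbed more slowly, with 10.72 and 10.62 at 0 h, 11.09 and 10.96 at 1 h, 11.44 and 11.40 at 3 h, 11.50 and 11.51 at 6 h, then 11.08 and 11.01 at 24 h in TAK1-deleted cells. In wild type cells it had 10.51 and 10.35, 10.94 and 10.66, 11.37 and 11.20, 11.66 and 11.59, and 11.40 and 11.24. The level was highest at 6 h in both genotypes and lower at 24 h. The step at 24 h over 6 h was -0.46 ± 0.12 in TAK1-deleted cells (limma adjusted p = 0.0116) and -0.31 ± 0.12 in wild type cells (0.0812, and 0.00448 with the replicate block). The changes of 0.36 and 0.37 at 1 h in TAK1-deleted and wild type cells lost their calls without some arrays: in TAK1-deleted cells whichever of the 4 was left out, and in wild type cells without replicate 1 at 1 h or replicate 2 at 0 h. Of the other versions, Mrps18c, closest to the bacterial protein, was higher at 24 h in both genotypes (0.55 in TAK1-deleted and 0.79 in wild type cells). At 6 h it changed by 0.16 in TAK1-deleted cells, which did not pass, and rose by 0.42 in wild type cells. Mrps18a, in the large subunit, was higher at 6 h in both genotypes (0.44 and 0.57). At 24 h it changed by 0.27 in TAK1-deleted cells, which did not pass, and rose by 0.56 in wild type cells. Single arrays decided some of these calls: Mrps18b at 24 h in TAK1-deleted cells (0.32 to 0.43) and Mrps18c at 6 h in wild type cells (0.35 to 0.49) lost theirs whichever of the 4 arrays was left out. Mrps18c at 24 h in TAK1-deleted cells held without replicate 1 at 0 h alone (0.40 to 0.70), and Mrps18a at 6 h there without replicate 2 at 6 h alone (0.29 to 0.59). In wild type cells Mrps18a was not called at 6 or 24 h without replicate 1 of that time or replicate 2 at 0 h (0.34 to 0.81 and 0.33 to 0.79). The step of Mrps18b in TAK1-deleted cells held without replicate 1 at 24 h alone.

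**Figure D3:**
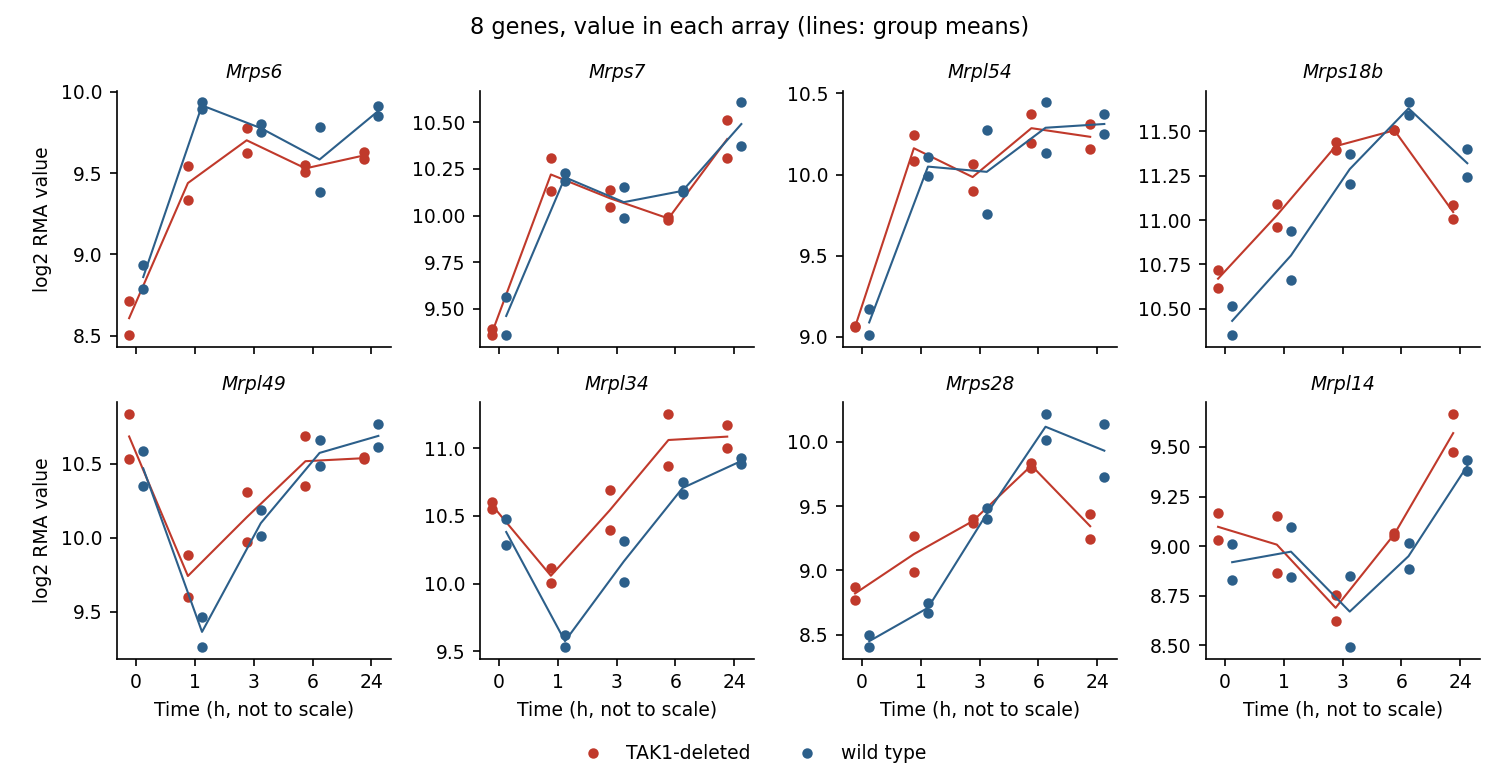
Log2 value in each array (points, 2 per group) of 8 genes at 0, 1, 3, 6 and 24 h, with lines through the group means, in TAK1-deleted cells (red) and wild type cells (blue). Mrps6, Mrps7 and Mrpl54 were raised by 0.74 to 1.10 at 1 h, Mrpl49 and Mrpl34 had their lowest values at 1 h, and Mrps28 at 24 h lay at 9.44 and 9.25 in TAK1-deleted cells and at 10.14 and 9.72 in wild type cells.

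Some genes fell within 1 h and then recovered. Falls at 1 h were no more frequent in the family than among all genes tested. They numbered 3 and 9 of the 77 in TAK1-deleted and wild type cells, against 10.2% and 13.9% of all genes. With the replicate block they numbered 8 and 18, against 21.2% and 26.1%. Mrpl49, a large subunit protein of mitochondria alone, had the largest fall: 10.84 and 10.53 at 0 h and 9.88 and 9.60 at 1 h in TAK1-deleted cells, and 10.59 and 10.35 and then 9.47 and 9.26 in wild type cells. At 24 h it was back at 10.54 and 10.53 in TAK1-deleted cells and 10.76 and 10.61 in wild type cells, within or close to the range at 0 h. The changes at 1 h were -0.94 ± 0.17 (limma adjusted p = 0.000666) and -1.10 ± 0.17 (0.000123) and kept their calls whichever array was left out. At 3 h the gene was still lower in TAK1-deleted cells (-0.55 ± 0.17, adjusted p = 0.0148, a call lost without replicate 2 at 3 h or replicate 1 at 0 h).

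Mrpl34, a small basic large subunit protein with a bacterial counterpart, fell at 1 h and ended above its start. It had 10.61 and 10.55 at 0 h, 10.11 and 10.00 at 1 h, then 11.17 and 11.00 at 24 h in TAK1-deleted cells, and 10.28 and 10.48, 9.62 and 9.53, and 10.88 and 10.93 in wild type cells. Neither the groups at 1 h nor those at 24 h overlapped with those at 0 h. The falls were -0.52 ± 0.15 in TAK1-deleted cells, a call lost whichever of the 4 arrays was left out, and -0.81 ± 0.15 in wild type cells, which held without each. At 24 h the rise in TAK1-deleted cells (0.42 to 0.59) held without replicate 2 at 24 h alone, and that in wild type cells (0.43 to 0.62) was not called without replicate 1 at 0 h. Mrps31, which fell at 1 h in both genotypes too (-0.65 and -0.53), was higher in wild type cells at 24 h by 0.88, with the call at 1 h in TAK1-deleted cells lost without replicate 2 at 1 h (-0.58) or replicate 1 at 0 h (-0.64).

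Wild type cells had 6 more genes that fell at 1 h, namely Mrpl36, Mrpl40, Mrps11, Mrps25, Mrps35 and Mrps36. In all 9 of the 77 fell, against 13.9% of all genes tested. Of the 9, 6 were higher than at 0 h by 24 h (Mrpl34, Mrpl36, Mrpl40, Mrps11, Mrps31 and Mrps36). Leaving out replicate 1 at 0 h ended the calls at 1 h of Mrpl36, Mrps11, Mrps25, Mrps31 and Mrps36, and so did replicate 2 at 1 h for each of these but Mrps25. Replicate 2 at 0 h did so for Mrpl36 and Mrps11, and replicate 1 at 1 h for Mrps25 and Mrps36. With the 4 arrays left out in turn these changes ran from -0.94 to -0.25. Set against each other, the changes at 1 h of the 2 genotypes differed in 0 of the 77 genes by limma (0% of all genes tested were higher and 0.109% lower), and 1 had an unadjusted p below 0.05. The median of this difference over the family was 0.15, and it was above 0 for 56 of the 77 genes, against 54.4% of all genes tested.

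Mrps28, a small subunit protein, showed the largest rise of the family in wild type cells. Its values in TAK1-deleted cells were 8.87 and 8.77 at 0 h, 9.27 and 8.99 at 1 h, 9.40 and 9.37 at 3 h, 9.84 and 9.79 at 6 h, then 9.44 and 9.25 at 24 h. Those in wild type cells were 8.49 and 8.40, 8.67 and 8.75, 9.40 and 9.48, 10.22 and 10.02, and 10.14 and 9.72 at the same times. By value it began higher in TAK1-deleted cells, a difference at 0 h that did not pass with or without the replicate block. It met the wild type level at 3 h and ended lower. The pairs did not overlap at 0 or 24 h, a separation found in those directions for 14.4% and 23.9% of all genes. The change at 24 h was 0.52 ± 0.14 in TAK1-deleted cells (limma adjusted p = 0.0129) and 1.48 ± 0.14 in wild type cells (6.51e-07). The call in TAK1-deleted cells did not hold without replicate 1 at 24 h or replicate 2 at 0 h (0.43 to 0.62).

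Without the replicate block, Mrps28 was also the only gene of the family whose change at 24 h differed between the genotypes by the test of that difference. With the block 20 genes, Mrps28 among them, were called lower, against 10.9% of all genes. The response of Mrps28, the change from 0 h in TAK1-deleted cells minus that in wild type cells, was -0.96 ± 0.21 (limma adjusted p = 0.0071). Across all genes tested 4.62% had a higher and 4.04% a lower response without the block. It ran from -1.17 to -0.75 with each of the 8 arrays left out in turn, each time with its call, and the adjusted p with the replicate block was 0.000181. At 24 h itself Mrps28 was lower in TAK1-deleted cells by 0.59 (-0.59 ± 0.14, adjusted p = 0.0139), a call lost without replicate 2 of TAK1-deleted cells (-0.49) or replicate 1 of wild type cells (-0.38).

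**Figure D4:**
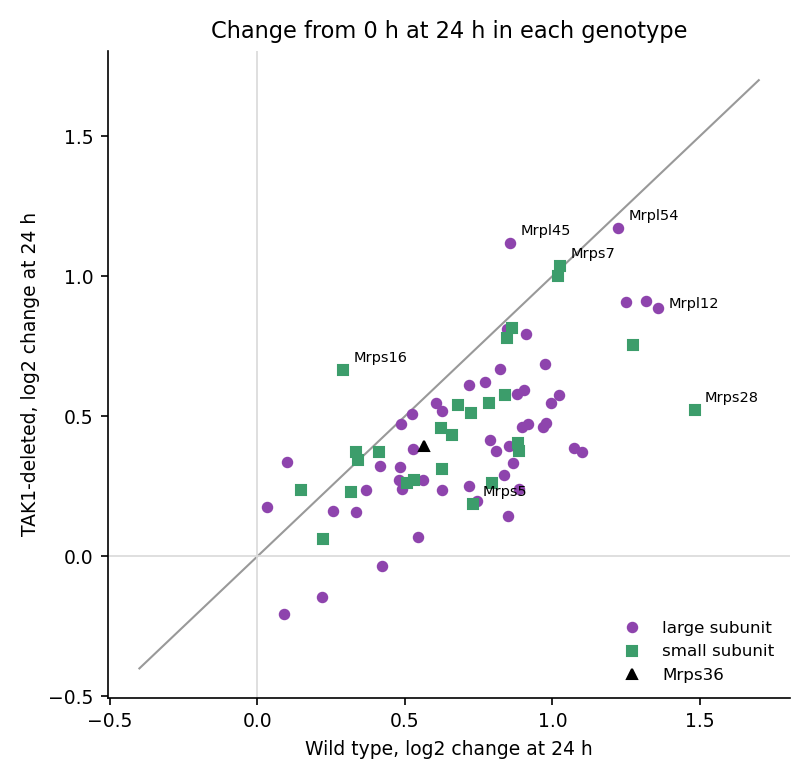
Log2 change from 0 h at 24 h of the 77 genes in TAK1-deleted cells (vertical axis) against that in wild type cells (horizontal axis), with circles for the large subunit, squares for the small subunit, a triangle for Mrps36 and the line of equal change. Of the 77 points 69 lie below the line, farthest for Mrps28 (0.52 against 1.48).

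Across the family the changes were smaller in TAK1-deleted cells at 24 h. The response was below 0 for 52, 61 and 69 of the 77 genes at 3, 6 and 24 h, against 51.1%, 52.3% and 51.7% of all genes tested, and its median was -0.11, -0.23 and -0.25. Without the replicate block few differences passed gene by gene: 0 genes at 3 h (0% of all genes higher, 0.0585% lower), 0 at 6 h (0.0919% and 0.192%) and 1 at 24 h in limma. Those at an unadjusted p below 0.05 numbered 0, 8 and 10. The response of 13 of 13 mitosis genes was lower at 24 h, with a median of -1.78, and their part in the result was not tested. The shares of all genes at that threshold were 5%, 8.58% and 19.4%. With the replicate block, 4 genes were called at 6 h (6.45% of all genes) and 20 at 24 h. All 20 had a lower response, against 10.9% of all genes, among them Mrps18b (-0.51 ± 0.17, adjusted p = 0.0724 without the block and 0.00235 with it), Mrps5, Mrpl3 and Mrpl51. Without replicate 1 of TAK1-deleted cells or replicate 2 of wild type cells at 24 h the count without the block was 2.

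Compared directly and without the replicate block, TAK1-deleted cells differed from wild type cells in few genes of the family. At 0, 1, 3, 6 and 24 h limma called 0, 1, 0, 0 and 2 genes, against 1.5%, 2.07%, 1%, 0.927% and 7.04% of all genes tested that were higher and 0.819%, 2.21%, 1.7%, 1.6% and 5.18% that were lower. Unadjusted p-values below 0.05 numbered 4, 17, 2, 6 and 14, against 9.12%, 13.7%, 9.89%, 12.5% and 24.2% of all genes. The median difference was 0.09, 0.22, 0.00, -0.13 and -0.17, a passage through 0 between 1 h and 6 h. At 24 h, 64 of the 77 genes were lower by value, against 49.98% of all genes tested, and 35 of them had both arrays of TAK1-deleted cells below both of wild type cells, a separation found in that direction for 23.9% of all genes.

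The gene called at 1 h was Mrps26, a small subunit protein of mitochondria alone, with 8.59 and 8.79 in TAK1-deleted cells and 8.02 and 8.11 in wild type cells. The difference of 0.62 ± 0.16 (limma adjusted p = 0.0307) lost its call whichever of the 4 arrays was left out (0.52 to 0.72), nor with arrays centred on their median (0.56). At 0 h Mrps26 already stood at 8.68 and 8.85 in TAK1-deleted cells and 8.17 and 8.48 in wild type cells, a difference called with the replicate block. Its response at 1 h was 0.19 ± 0.22 and did not pass. Mrps5, a small subunit protein with a bacterial counterpart at the entry of the messenger channel, was called with Mrps28 at 24 h. It had 10.10 and 9.91 in TAK1-deleted cells and 10.57 and 10.37 in wild type cells. Its difference of -0.47 ± 0.14 (adjusted p = 0.0422) lost its call whichever of the 4 arrays was left out (-0.57 to -0.37). Without replicate 2 of TAK1-deleted cells or replicate 1 of wild type cells the count at 24 h was 0, and 1 without replicate 1 of TAK1-deleted cells. With the replicate block the counts at the 5 times were 3, 13, 2, 9 and 19, against 6.99%, 12.9%, 8.31%, 12.2% and 28.8% of all genes with the block. Of these, 12 of the 13 at 1 h were higher (7.19% of all genes) and all 19 at 24 h were lower in TAK1-deleted cells (14.1%).

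From 6 h to 24 h the median change of the family was -0.02 in TAK1-deleted cells and 0.03 in wild type cells. In TAK1-deleted cells 2 genes were higher at 24 h than at 6 h (Mrpl14 and Mrps7, against 10.8% of all genes) and 2 lower (Mrps18b and Mrps28, against 8.05%). Among wild type arrays 1 was higher (Mrpl14, against 9.02%) and 0 lower (10.4%), with 13 at an unadjusted p below 0.05 (30.8% of all genes). With the replicate block 7 genes were higher and 9 lower in TAK1-deleted cells, against 17.7% and 17.9% of all genes, and 9 higher and 4 lower in wild type cells, against 15.7% and 22.4%. Mrpl14, a large subunit protein with a bacterial counterpart, was at 9.05 and 9.07 at 6 h, then 9.67 and 9.47 at 24 h in TAK1-deleted cells, and at 8.88 and 9.01 and then 9.43 and 9.38 in wild type cells. Its earlier course went the other way, with 8.62 and 8.75 at 3 h against 9.03 and 9.17 at 0 h in TAK1-deleted cells (-0.41 ± 0.15, limma adjusted p = 0.0371, a call lost whichever of the 4 arrays was left out). The step in wild type cells likewise lost its call whichever array was left out. Without replicate 1 at 24 h or at 6 h the count was 0, and 2 without replicate 2 at 24 h. In TAK1-deleted cells the count of 4 was 0 without either replicate at 6 h, and 1 and 2 without replicates 1 and 2 at 24 h. Among these 4, Mrps28 lost its call whichever array was left out. The step itself differed between the genotypes in 0 genes (3.24% of all genes tested were higher and 0.627% lower), also with the replicate block, and 0 had an unadjusted p below 0.05.

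Mrpl12, of the stalk that binds translation factors, had 9.42 and 9.96 at 0 h, then 10.76 and 10.39 at 24 h in TAK1-deleted cells, and 9.33 and 9.83 and then 10.96 and 10.92 in wild type cells. Both pairs at 24 h lay above the pairs at 0 h, in spite of the spread between the replicates at 0 h (SD 0.39 and 0.36). The changes were 0.89 ± 0.28 (limma adjusted p = 0.025) and 1.36 ± 0.28 (0.000791), and that in TAK1-deleted cells was not called without replicate 1 at 24 h or at 0 h (0.61 to 1.16). Mrpl11, at the base of that stalk, had 8.55 and 8.67 at 0 h, then 9.57 and 9.47 at 24 h in TAK1-deleted cells, and 8.63 and 8.59 and then 10.07 and 9.79 in wild type cells, changes of 0.91 ± 0.15 and 1.32 ± 0.15.

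Mrpl2, a protein that lies beside the peptidyl transferase centre, had 8.60 and 8.75 at 0 h, 9.59 and 9.86 at 6 h, then 9.62 and 9.54 at 24 h in TAK1-deleted cells, and 8.52 and 8.74, 9.60 and 9.75, and 9.96 and 9.80 in wild type cells. The groups at 6 h were alike in both genotypes, and the pair at 24 h was higher in wild type cells, by 0.30 ± 0.13, a difference that did not pass (limma adjusted p = 0.166, and 0.0385 with the replicate block). Mrpl3, also near that centre, rose by 0.39 in TAK1-deleted cells and 0.85 in wild type cells at 24 h. In the small subunit, Mrps12 of the decoding centre changed by 0.27 in TAK1-deleted cells, which did not pass, and rose by 0.53 in wild type cells at 24 h, and Mrps2 likewise by 0.31, which did not pass, and 0.63. The call for Mrpl3 in TAK1-deleted cells held without replicate 2 at 0 h alone (0.31 to 0.48). In wild type cells that for Mrps12 was lost without replicate 1 at 0 h (0.30 to 0.76 over the 4 arrays) and that for Mrps2 held without replicate 1 at 0 h alone (0.49 to 0.76).

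Among small subunit proteins found in mitochondria alone, Mrps34 rose by 0.78 in TAK1-deleted and 0.85 in wild type cells at 24 h. Mrps27 changed by 0.58 in TAK1-deleted cells, which did not pass, and rose by 0.84 in wild type cells. Mrps30, of the large subunit, changed by 0.29 in TAK1-deleted cells, which did not pass, and rose by 0.84 in wild type cells. Mrpl58, which can release peptides from stalled ribosomes, rose by 0.55 and 0.60. Mrps22 had 8.86 and 8.98 at 0 h, then 9.73 and 9.61 at 24 h in TAK1-deleted cells, and 8.85 and 8.82 and then 10.23 and 9.99 in wild type cells. It rose by 0.75 ± 0.17 and 1.27 ± 0.17. Mrps36, the protein of the ketoglutarate dehydrogenase complex, was at 7.95 and 7.64 at 24 h in TAK1-deleted cells (a change of 0.39, which did not pass) and at 8.35 and 7.81 in wild type cells (0.57 ± 0.18, limma adjusted p = 0.0186). Without replicate 1 at 24 h or replicate 2 at 0 h, the calls of Mrps27 (0.71 to 0.96), Mrps30 (0.56 to 1.12) and Mrps36 (0.29 to 0.84) in wild type cells and of Mrpl58 in TAK1-deleted cells (0.38 to 0.72) did not hold.

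Some genes differed from the rest in their calls. Mrps16, a small subunit protein with a bacterial counterpart that was picked after its values were seen, was higher at 6 and 24 h in TAK1-deleted cells (0.45 and 0.66) and was not called in wild type cells (-0.12 and 0.29). Its call at 6 h did not hold without replicate 2 at 6 h or replicate 1 at 0 h (0.37 to 0.54). Its response at 6 h was 0.57 ± 0.20 (limma adjusted p = 0.347, and 0.0147 with the replicate block). Genes called at no time in either genotype without the replicate block numbered 10: Mrpl24, Mrpl28, Mrpl33, Mrpl4, Mrpl41, Mrpl57, Mrpl9, Mrps21, Mrps23 and Mrps24. With the block 9 of them were called at 1 time or more, Mrpl24 being the exception. The calls of Mrpl9, Mrpl28, Mrpl33, Mrpl41, Mrps23 and Mrps24 were all higher, as in most of the family. Those of Mrpl4 and Mrps21 were lower, and those of Mrpl57 went in both directions. Changes of the 10 ran from -0.66 (Mrps21) to 0.57 (Mrpl9), with standard errors of 0.12 to 0.29. A change that did not pass is not shown to be absent. Mrps21, the brightest gene, had replicates as far apart as 11.57 and 12.41 at 24 h in TAK1-deleted cells.

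For 8 genes more than 1 probe set carried the symbol, and the brightest was used. The 2 probe sets of Mrpl23 gave changes at 24 h of 0.67 and 0.67 in TAK1-deleted cells and of 0.82 and 0.83 in wild type cells. Those of Mrpl51, a gene picked here after its values were seen, were farther apart at 24 h, with 0.39 and 0.01 in TAK1-deleted cells and 1.07 and 0.46 in wild type cells, the brighter first. At 1 h the 2 probe sets of Mrpl41, Mrpl47, Mrps33 and Mrps5 differed in sign in TAK1-deleted cells or in both genotypes, all where the change of the brighter one did not pass. Those of Mrpl41 also differed in sign at 24 h in TAK1-deleted cells (0.27 and -0.11). Whether a probe set matches a near-identical copy elsewhere in the genome was not tested.

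**Figure D5:**
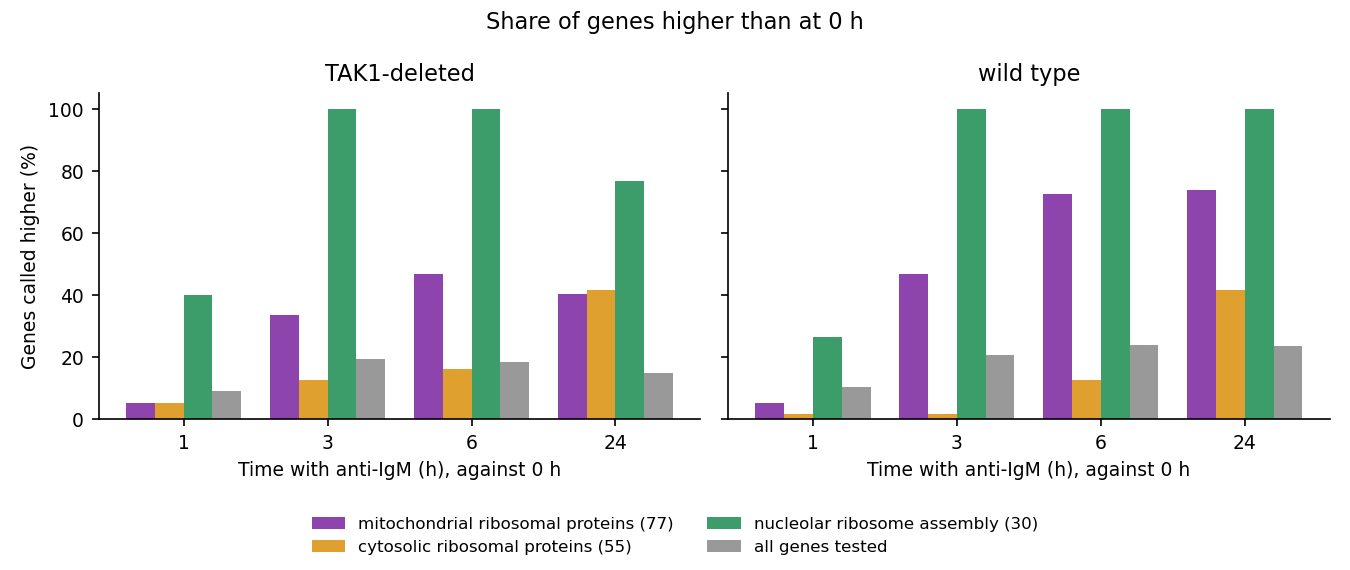
Percent of genes called higher than at 0 h at 1, 3, 6 and 24 h in TAK1-deleted cells (left) and wild type cells (right), for the 77 mitochondrial ribosomal protein genes, 55 cytosolic ribosomal protein genes, 30 genes of nucleolar ribosome assembly and all 11968 genes tested. At 6 h the mitochondrial ribosomal protein genes reached 46.8% and 72.7%, all genes 18.5% and 24.1%.

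Genes of the cytosolic ribosome were set beside the family. Of 30 genes that assemble cytosolic ribosomes in the nucleolus, all 30 were higher at 3 and 6 h in both genotypes, with medians of 1.32 and 1.08 in TAK1-deleted cells and 1.60 and 1.55 in wild type cells. Of the 55 tested genes for proteins of the cytosolic ribosome, 9 and 7 were higher at 6 h, then 23 and 23 at 24 h in TAK1-deleted and wild type cells, with medians at 24 h of 0.32 and 0.24. The mitochondrial family thus lay between the assembly genes and the cytosolic proteins in its median at 3 and 6 h. At 24 h, without the replicate block, 1 of the 77 mitochondrial genes had a lower response. In the same fit 12 of the 30 nucleolar genes had a lower response, with a median of -0.70, and 0 of the 55 cytosolic proteins did, with a median of 0.13.

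Genes that work with the mitochondrial ribosome were counted as well. Of 4 mitoribosomal proteins with other names, 2 at 24 h in TAK1-deleted cells and 3 in wild type cells were higher, with Gadd45gip1 at 0.47 and 0.89 and Chchd1 at 0.70 and 0.91. Dap3, the GTP-binding protein of the small subunit, changed by 0.13 and 0.30 at 24 h, neither of which passed (limma adjusted p = 0.606 and 0.141, and 0.0315 in wild type cells under the replicate block), and was higher at 6 h in wild type cells (0.41). Among 12 mitochondrial translation factors, 2 were higher at 24 h in TAK1-deleted cells and 5 in wild type cells, against 14.9% and 23.6% of all genes tested. At 1 h 2 and 5 of these factors had been lower, against 10.2% and 13.9% of all genes. Mrrf, which recycles ribosomes, rose by 0.62 and 1.18 at 24 h. Gfm1, an elongation factor, rose by 1.06 in wild type cells.

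Among 24 genes of mitoribosome assembly, 7 and 14 were higher at 6 h but 1 and 11 at 24 h in TAK1-deleted and wild type cells. Fastkd2, an RNA-binding assembly factor, rose by 0.98 and 1.40 at 6 h and by 0.40 and 1.13 at 24 h. Of 11 genes of mitochondrial transcription and DNA upkeep, 4 and 7 were higher at 6 h, then 0 and 3 at 24 h, led at 6 h by Twnk, the mitochondrial DNA helicase (1.06 and 1.21). Across all genes tested, 18.5% and 24.1% were higher at 6 h and 14.9% and 23.6% at 24 h in TAK1-deleted and wild type cells. These lists were compared by counts and medians alone.

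Many members share their promoter region with a gene on the opposite strand. A gene that starts within 1000 bases and points away was found for 26 of the 68 members in the promoter table (38.2%), against 19.0% of the tested genes and 12.3% of all genes in the table. Mrpl46 and Mrps11, of the large and the small subunit, start 42 bases apart, and the sequence printed for Mrps11 holds both starts. Mrps11 had 8.47 and 8.44 at 0 h, then 9.04 and 8.94 at 24 h in TAK1-deleted cells and rose by 0.54, while Mrpl46 had 8.94 and 8.60 and then 9.10 and 8.58 and changed by 0.07, which did not pass. Both were higher in wild type cells at 24 h, by 0.68 and 0.54 (the call for Mrpl46, adjusted p = 0.0483 in limma, held in 2 of 4 fits with 1 array left out). There Mrps11 stood at 8.26 and 8.28 at 0 h and then at 8.98 and 8.92, and Mrpl46 at 8.84 and 8.51 and then at 9.53 and 8.90.

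Neighbours outside the family were counted too. Of 21 tested neighbours, 2 were higher and 2 lower at 24 h in TAK1-deleted cells, while 7 of their 21 partners in the family were higher, and 8 were higher and 2 lower in wild type cells, while 17 of their partners were higher. Of all genes tested, 14.9% were higher and 12.7% lower at 24 h in TAK1-deleted cells, and 23.6% and 20.2% in wild type cells. The following pairs, and the pair above, were chosen after their values were seen. Tcp1, a subunit of the cytosolic chaperonin that starts 238 bases from Mrpl18, rose by 1.02 in wild type cells at 24 h, beside 0.90 for Mrpl18. Gga3, a trafficking adaptor 224 bases from Mrps7, had changes of -0.63 in TAK1-deleted cells and -0.71 in wild type cells (limma adjusted p = 0.0148 in wild type cells), beside rises of 1.04 and 1.03 for Mrps7. Klc4, 141 bases from Mrpl2, changed by -0.30 in wild type cells, which did not pass (adjusted p = 0.0708), beside 1.25 for Mrpl2.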

How the data were processed

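Members and lists were chosen with earlier results of these data known. Per the submitters' processing notes, the authors used RMA and Affymetrix Expression Console 1.0, and they deposited log2 values; the build behind the probe sets is not given in the sources used here. The values were used as deposited. A probe set with 1 symbol was kept if 2 or more arrays reached 7.45, the overall median, and the brightest was used per gene, which left 11968 genes.

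A model of 10 group means over the 20 arrays was fitted in R 4.3.3 by limma 3.58.1, with eBayes and its intensity trend, on 10 residual and 5.47 prior degrees of freedom, after the script was tested on simulated data. Across 20 contrasts, p-values were two-sided and Benjamini-Hochberg adjusted within each contrast over all genes, called below 0.05. Precision is limited by the number of arrays, and the median SE was 0.16 for a difference and 0.23 for a response.

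The labels number replicates 1 and 2 in every group. Deviations of same-numbered arrays from their group means correlated in all 45 pairs of groups (r of 0.19 to 0.77), so the numbers were taken as pairing the samples. Calls given without mention of the block, also with an array left out, come from the fit that ignores this pairing. With the block more members were called at 24 h: 19 against 2 between the genotypes and 20 against 1 for the response. The shares of all genes with the block were 28.8% and 22%. Counts with the number as a block stand beside those they move by more than 1.5 times. Median levels of the tested genes ran from 9.14 to 9.31 in arrays numbered 1 and from 9.00 to 9.20 in those numbered 2.

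Named genes were, per contrast, the 4 called members of largest change in each direction, the 3 brightest and dimmest, genes of known role, members never called and members whose probe sets differ in sign. Alternatives were a replicate block, no filter, a stricter filter, the mean of probe sets, no trend, centred arrays and leaving out each array. Promoter sequences are from RefSeq.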

Additional observations from a re-analysis of the deposited data

Results flagged for a closer look

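The response of Mrps28 at 24 h differed between the genotypes by the test of the difference itself: the change from 0 h was smaller in TAK1-deleted cells (0.52) than in wild type cells (1.48), a difference of -0.96 ± 0.21 (limma adjusted p = 0.0071). The call of this response held with each of the 8 arrays left out and with the replicate block (limma adjusted p = 0.000181). Part of the response lay at 0 h, and it is not the size of the difference at 24 h. At 0 h the gene had 8.87 and 8.77 in TAK1-deleted cells and 8.49 and 8.40 in wild type cells, a difference that did not pass.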

How the results depend on the processing

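Of 300 settings of 28 counts of members called, 239 stayed within 1.5 times the count reported, and no count or named change reversed. Of 504 settings of 50 named changes, 65 lost their call, all others kept it; 19 changes lost it on leaving out an array and 7 under another setting. The cause of these shifts was not tested.

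Under the replicate block, members higher at 1, 3, 6 and 24 h in TAK1-deleted cells numbered 11, 40, 55 and 54, members lower at 1 and 3 h 8 and 5, members higher and lower at 1 h in wild type cells 12 and 18 and lower at 3 h 3. The step at 24 h over 6 h was called for 16 members in TAK1-deleted and 13 in wild type cells, the genotypes differed in 3, 13, 2, 9 and 19 members at 0, 1, 3, 6 and 24 h, and the response in 4 at 6 h and 20 at 24 h.

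With arrays centred on their median, members higher and lower at 1 h in TAK1-deleted cells numbered 9 and 5, members higher at 1 h in wild type cells 12 and lower at 3 h 1. The step was called for 8 and 7 members in TAK1-deleted and wild type cells, the genotypes differed in 1, 4, 1 and 8 members at 0, 1, 6 and 24 h, and the response in 7 at 24 h. With no filter, 1 member was lower at 3 h in TAK1-deleted cells, the step in wild type cells was called for 0 and the genotypes differed in 1 member at 24 h. With no intensity trend the response at 24 h was called for 2.

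With each array left out in turn, members in TAK1-deleted cells numbered 1 to 4 lower at 1 h, 15 to 22 higher and 0 to 2 lower at 3 h, 23 to 32 higher at 6 h and 14 to 29 higher at 24 h. In wild type cells 4 to 7 were lower at 1 h and 0 to 2 lower at 3 h. The step was called for 0 to 2 members in each genotype, the genotypes differed in 0 at 1 h and 0 to 2 at 24 h, and the response at 24 h was called for 1 to 2. Where a group kept 1 array, that array was taken to vary like the others.

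With 2 arrays a group, differences well above the median SE of 0.16 could miss the threshold in the fit without the block. The step of 0.40 ± 0.20 in Mrpl52 in TAK1-deleted cells did so (adjusted p = 0.199 in limma) and passed with the replicate block (0.0103).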
